A study of Mus musculus with 11 samples.

Results

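The 10 genes followed here report on ERK signalling and were measured across the media of a mouse embryonic stem (ES) cell study: the immediate early genes Egr1, Egr2, Fos and Ier3, the ERK phosphatase genes Dusp4 and Dusp6, the Sprouty genes Spry2 and Spry4, and the ETS factor genes Etv4 and Etv5. The genes were listed by name and found through the RefSeq accessions of the array probes, and all 10 were among the 16279 genes tested. The list was chosen with earlier results of these data known, which limits every contrast with all genes below. Etv4 had 2 probes and each other gene had 1. The cells were unsorted ES cells of the lines HVJu5.1, HVJu9.3 and E14, all of 129/Ola background, kept for at least 3 passages in 2i/LIF (5 arrays), KOSR/LIF (3 arrays) or serum/LIF (3 arrays). LIF, leukaemia inhibitory factor, was in every medium. By its usual definition 2i holds an inhibitor of MEK, the kinase directly above ERK, and an inhibitor of GSK3, and KOSR (knockout serum replacement) is a defined substitute for serum. The lines are clones, so each array stands for the cells of 1 line in 1 medium, and the labels do not say whether the repeated 2i/LIF samples of a line were separate cultures. RNA was measured on 1 Agilent one-colour array per sample.

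As background, growth factor receptors switch on Ras, Raf, MEK and ERK in turn. Active ERK phosphorylates ETS-family cofactors of serum response factor (SRF), and genes with SRF sites, the CArG boxes, are then transcribed within minutes without new protein. The same signal turns on its own brakes, namely phosphatases that remove the phosphates from ERK and Sprouty proteins that act above it. In mouse ES cells, FGF4 made by the cells drives ERK and favours the exit from self-renewal, which is why a MEK inhibitor is part of 2i.

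Promoter windows are shown for members whose levels moved between media or differed between both deposited sources of values, with sequences from RefSeq (GRCm38.p6, 250 bases before the annotated start to 50 bases after it, 5′ to 3′). The RefSeq promoter table held windows for 6 of the 10 genes, 11 windows in all. Capitals mark matches to 3 motifs searched on both strands: the CArG box (CC, then 6 letters A or T, then GG), the ETS core CCGGAA and the cyclic AMP response element core TGACG. These motifs were chosen after the data were seen.
Egr2, chr10:67537619-67537918, plus strand: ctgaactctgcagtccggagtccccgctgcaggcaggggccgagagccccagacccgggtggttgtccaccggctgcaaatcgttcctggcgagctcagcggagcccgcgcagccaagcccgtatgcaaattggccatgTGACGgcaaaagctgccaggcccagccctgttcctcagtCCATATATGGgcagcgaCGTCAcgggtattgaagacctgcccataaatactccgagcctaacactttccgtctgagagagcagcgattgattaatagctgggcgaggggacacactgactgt
Fos, chr12:85473640-85473939, plus strand: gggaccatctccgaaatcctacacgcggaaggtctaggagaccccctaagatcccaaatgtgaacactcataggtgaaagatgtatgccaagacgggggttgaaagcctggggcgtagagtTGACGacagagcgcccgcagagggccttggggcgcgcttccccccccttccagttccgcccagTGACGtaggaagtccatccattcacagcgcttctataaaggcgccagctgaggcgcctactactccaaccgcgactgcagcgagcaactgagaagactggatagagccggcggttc
Dusp6, chr10:99262981-99263280, plus strand: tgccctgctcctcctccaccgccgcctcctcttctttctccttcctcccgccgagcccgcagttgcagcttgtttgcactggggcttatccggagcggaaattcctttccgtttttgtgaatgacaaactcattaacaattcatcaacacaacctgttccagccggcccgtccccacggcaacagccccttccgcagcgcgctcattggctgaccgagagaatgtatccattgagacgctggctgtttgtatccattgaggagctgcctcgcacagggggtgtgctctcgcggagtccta
Spry2, chr14:105896770-105897069, minus strand: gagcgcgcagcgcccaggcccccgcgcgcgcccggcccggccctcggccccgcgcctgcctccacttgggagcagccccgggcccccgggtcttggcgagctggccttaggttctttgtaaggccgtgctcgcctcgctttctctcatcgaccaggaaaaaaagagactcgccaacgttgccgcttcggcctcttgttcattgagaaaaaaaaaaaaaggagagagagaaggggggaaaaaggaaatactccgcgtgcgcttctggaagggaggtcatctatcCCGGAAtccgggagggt
The Egr2 window held a CArG box at positions -72 to -63 from the start site (the first transcribed base is 1) between TGACG cores at -111 to -107 and -55 to -51. CArG boxes were present in 1.63% of all 32851 windows in the table. Fos held TGACG cores at -129 to -125 and -66 to -62, a motif found in 20.8% of all windows. No CArG box was in the Fos window, which says nothing of sequence outside that window. Spry2 held an ETS core downstream of the start, at 34 to 39, a motif found in 14.9% of all windows. None of the 3 motifs was present in the windows of Dusp6 and Ier3 or in either window of Etv5, which says only that these letters were not there. One of the 4 other windows of Egr2 held none of the motifs either.

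Levels are given on the log2 scale of processed intensity, with 0 at the 75th percentile of each array, and levels of different genes are not compared. That percentile was an intensity of 65.3 on KOSR/LIF replicate 3 and of 176 to 538 on the other 10 arrays, and 43.7% of probes were well above background on KOSR/LIF replicate 3 against 53.7% to 72.6% on the others. Across the deposited value table, 6 columns matched their own scanner file, 4 matched the scanner file of another replicate of the same medium (2i/LIF replicates 1 and 4, and KOSR/LIF replicates 1 and 2, were exchanged between both sources), and the column of KOSR/LIF replicate 3 matched none. Which source carries the right replicate labels is not known, and replicate numbers here follow the scanner files. Results on KOSR/LIF are also given without replicate 3 because of its dim signal and unmatched column. All 8 ES cell markers examined, among them Pou5f1, Sox2 and Nanog, were well above background on every array.

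**Figure D1:**
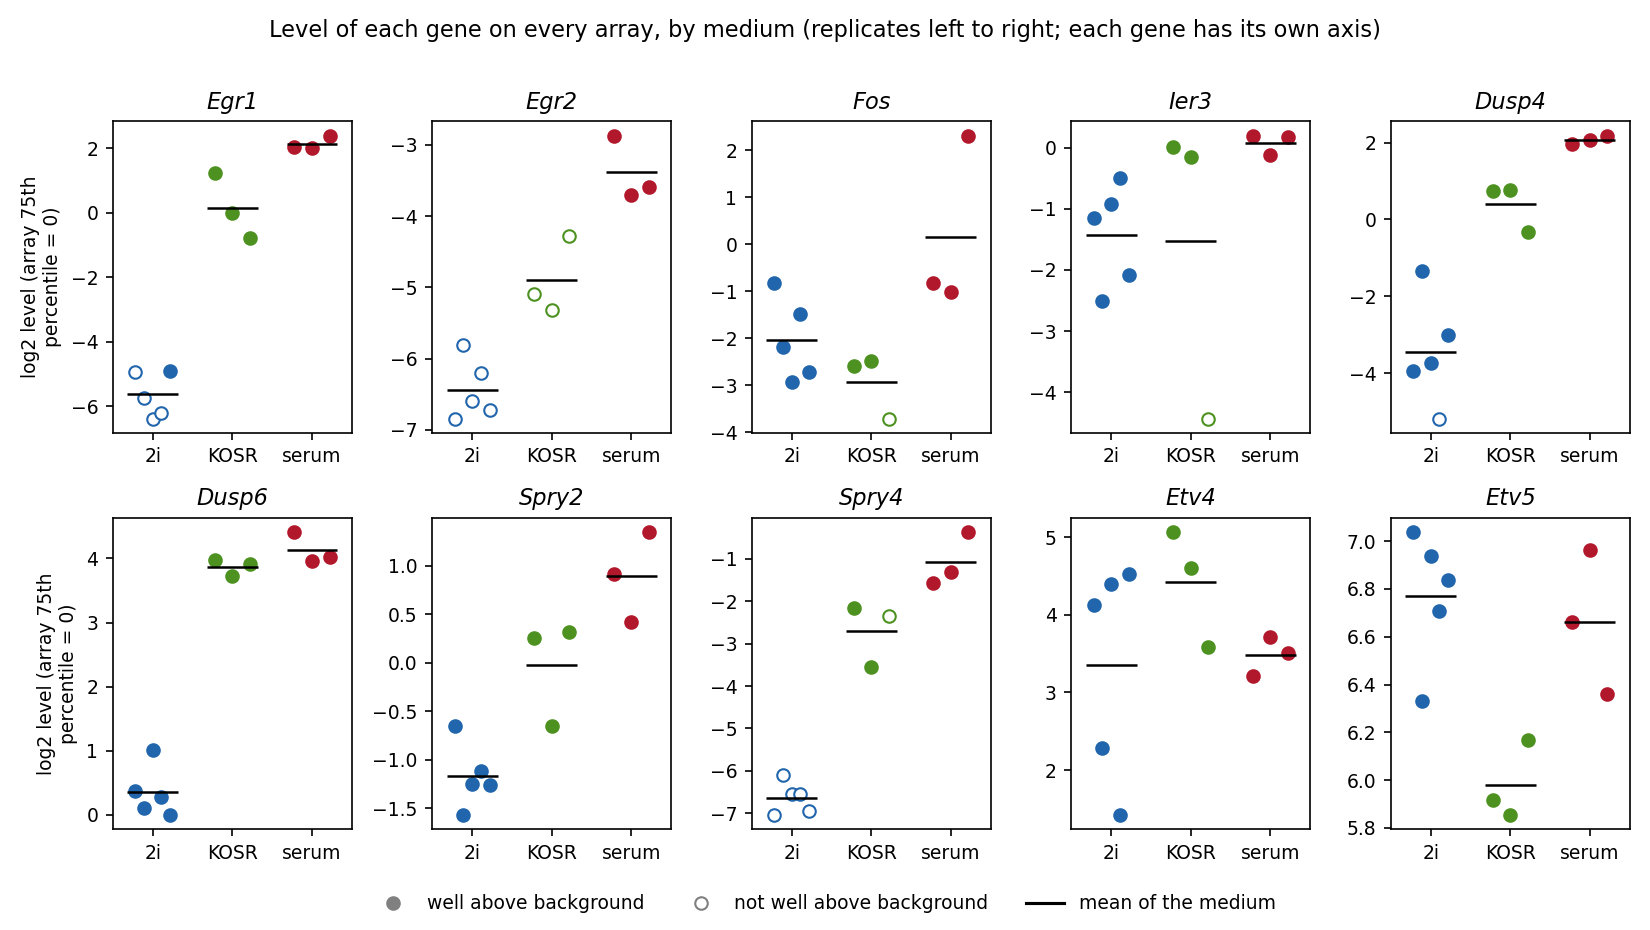
Log2 level of each of the 10 genes on every array (vertical axis, 0 is the array's 75th percentile, own scale per gene), with 5 arrays of 2i/LIF, 3 of KOSR/LIF and 3 of serum/LIF from left to right. Points are arrays, open points were not well above background and bars are means. Egr1, Egr2, Ier3, Dusp4, Dusp6, Spry2 and Spry4 lie lower on every 2i/LIF array than on any serum/LIF array. The share of all genes that do so was not counted, so it cannot be told whether this is unusual.

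Transcripts of ERK-responsive genes were compared first between 2i/LIF, which by its usual definition holds inhibitors of MEK and GSK3, and serum/LIF. ERK activity itself was not measured. Of the 10 genes, 6 fell in 2i/LIF and none rose: Egr1, Egr2, Dusp4, Dusp6, Spry2 and Spry4. In this comparison limma called 16.7% of all genes tested in either direction, 9.98% lower and 6.74% higher (Benjamini-Hochberg adjusted p under 0.05). The median log2 change of the 10 genes was -2.62, against 0.03 over all genes tested. At an unadjusted p under 0.05, 7 of the 10 were lower (15.0% of all genes) and 0 higher (12.0% of all genes). On bulk arrays, fewer cells that express a gene and less RNA per cell cannot be told apart.

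Egr1 encodes a zinc finger transcription factor and is a textbook immediate early gene. Its levels were -4.93, -5.74, -6.38, -6.20 and -4.89 on the 2i/LIF arrays, 1.24, -0.005 and -0.78 on the KOSR/LIF arrays and 2.02, 2.00 and 2.39 on the serum/LIF arrays. The 3 media occupied separate ranges, with 2i/LIF far below the others, and only replicate 5 of 2i/LIF was well above background. Egr1 fell by 7.76 ± 0.47 in 2i/LIF against serum/LIF (log2, SE, limma adjusted p = 2.81e-06), the largest fitted fall among the 10 genes. With every dim signal lifted to the dimmest signal still well above background on that array, the change was -6.67, and with normexp background correction it was -4.13, which also passed.

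Egr2 encodes a zinc finger factor related to Egr1. Its levels were -6.84, -5.81, -6.59, -6.21 and -6.72 in 2i/LIF, -5.10, -5.32 and -4.28 in KOSR/LIF and -2.87, -3.70 and -3.59 in serum/LIF. The ranges did not overlap, yet only the 3 serum/LIF arrays were well above background, and the gene entered the test through those arrays alone. Its count is therefore also given apart: of the 9 other genes, 5 fell in 2i/LIF and 0 rose. Those 5 still hold Spry4, which entered the test through arrays of the other media, with no 2i/LIF array well above background. Egr2 was at least 2.65-fold lower in 2i/LIF, set against serum/LIF (limma adjusted p = 8.31e-05). This bound holds for the processed signal. It divides the serum/LIF mean by the mean, over 2i/LIF arrays, of the probe's signal or the dimmest signal still well above background, whichever was higher. The call was lost with normexp background correction (log2 change -0.46, adjusted p = 0.617) and with dim signals raised (-1.40, adjusted p = 0.133).

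Fos, the partner of Jun in the AP-1 transcription factor, did not pass in this comparison. Its levels were -0.83, -2.19, -2.93, -1.49 and -2.71 in 2i/LIF, -2.59, -2.48 and -3.71 in KOSR/LIF and -0.83, -1.01 and 2.31 in serum/LIF. Replicate 3 of serum/LIF stood far above every other array, and 2i/LIF replicate 1 reached the other serum/LIF arrays. The fitted change in 2i/LIF against serum/LIF was -2.19 ± 0.73 (limma adjusted p = 0.0641), and it was -1.11 without serum/LIF replicate 3 (adjusted p = 0.274). It passed without 2i/LIF replicate 1 (-2.48, adjusted p = 0.0443) or without serum/LIF replicate 2 (-2.77, adjusted p = 0.0460), and with the slide or the line from source names as a block (adjusted p = 0.0351 and 0.0292). In the value table its change was -0.88 (adjusted p = 0.543, and 0.0911 with KOSR/LIF replicate 3 left out). In the deposited value table the Fos intensity of serum/LIF replicate 3 was 190, a log2 level of -0.76, although the column as a whole matched that array's scanner file.

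Ier3 encodes a stress- and growth-factor-induced protein that is itself an ERK substrate. Its levels were -1.16, -2.51, -0.93, -0.49 and -2.08 in 2i/LIF, 0.01, -0.15 and -4.43 in KOSR/LIF and 0.20, -0.13 and 0.17 in serum/LIF. Every 2i/LIF array lay below every serum/LIF array, while KOSR/LIF split into a pair at the serum/LIF level and replicate 3, which was not well above background. The change in 2i/LIF against serum/LIF was -1.51 ± 0.87 and did not pass (limma adjusted p = 0.311). The same change passed when KOSR/LIF replicate 3, an array of neither medium that adds to the shared estimate of spread, was left out (adjusted p = 0.0266). Ier3 also passed with normexp, with the slide as a block and in the value table (changes of -1.06, -0.94 and -1.31, adjusted p between 0.0215 and 0.0395).

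Dusp4 and Dusp6 encode dual-specificity phosphatases that inactivate ERK, Dusp4 in the nucleus and Dusp6 in the cytoplasm. Dusp4 levels were -3.96, -1.35, -3.73, -5.18 and -3.00 in 2i/LIF, 0.73, 0.77 and -0.32 in KOSR/LIF and 1.97, 2.06 and 2.18 in serum/LIF. The 2i/LIF arrays were the most spread of the 3 media, replicate 4 was not well above background and replicate 2 was the highest, and all 5 lay below KOSR/LIF and serum/LIF. Dusp4 fell by 5.51 ± 0.66 in 2i/LIF against serum/LIF (limma adjusted p = 0.000167). With normexp the change was -3.64 and passed.

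Dusp6 levels were 0.37, 0.10, 1.00, 0.28 and -0.006 in 2i/LIF, 3.98, 3.72 and 3.91 in KOSR/LIF and 4.42, 3.97 and 4.03 in serum/LIF. All arrays were well above background, and 2i/LIF was set apart from the other media, whose ranges overlapped. Dusp6 fell by 3.79 ± 0.25 in 2i/LIF against serum/LIF, a 13.8-fold difference (limma adjusted p = 3.9e-06). Over 27 other settings, its change in this comparison ran between -3.95 and -3.50. It passed in each setting from which a call is read, which leaves out the third scan day, described below.

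The Sprouty proteins restrain receptor tyrosine kinase signalling above ERK. Spry2 levels were -0.66, -1.57, -1.25, -1.12 and -1.27 in 2i/LIF, 0.26, -0.66 and 0.31 in KOSR/LIF and 0.92, 0.42 and 1.35 in serum/LIF. The media followed each other without overlap, though KOSR/LIF replicate 2 and 2i/LIF replicate 1 nearly met. Spry2 fell by 2.07 ± 0.31 in 2i/LIF against serum/LIF, a 4.19-fold difference (limma adjusted p = 0.000737).

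Spry4 levels were -7.04, -6.10, -6.55, -6.54 and -6.94 in 2i/LIF, -2.17, -3.56 and -2.35 in KOSR/LIF and -1.57, -1.32 and -0.37 in serum/LIF. No 2i/LIF array was well above background, and 2i/LIF lay far below both other media. Spry4 was at least 13.0-fold lower in 2i/LIF, set against serum/LIF (limma adjusted p = 4.73e-06). That bound holds for the processed signal: with normexp the fitted log2 change was -1.80, which is smaller than the bound and also passed.

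Etv4 and Etv5, ETS factors of the PEA3 group and known FGF targets, did not pass between 2i/LIF and serum/LIF. Etv5 levels were 7.04, 6.33, 6.94, 6.71 and 6.84 in 2i/LIF, 5.92, 5.85 and 6.17 in KOSR/LIF and 6.66, 6.96 and 6.36 in serum/LIF. The 2i/LIF and serum/LIF ranges overlapped over most of their length, and all 3 KOSR/LIF arrays lay below both. The change in 2i/LIF against serum/LIF was 0.11 ± 0.23 (limma adjusted p = 0.851), with a 95% interval between -0.39 and 0.61.

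Etv4 levels were 4.13, 2.28, 4.40, 1.42 and 4.53 in 2i/LIF, 5.07, 4.60 and 3.58 in KOSR/LIF and 3.21, 3.72 and 3.50 in serum/LIF. The 2i/LIF arrays split into 3 high and 2 low ones on both sides of serum/LIF. The change was -0.13 ± 0.67 (limma adjusted p = 0.949) with a wide 95% interval, between -1.60 and 1.35. The other Etv4 probe had the same 2 arrays low, with levels of 2.17, 0.97, 2.86, -0.17 and 2.90 in 2i/LIF and 1.70, 2.37 and 1.87 in serum/LIF, and a change of -0.23 ± 0.79 (adjusted p = 0.912 in a fit of all probes). For the array of 2i/LIF replicate 4, the column of the value table that matches it held a level of 3.84 for the Etv4 probe that read 1.42 in the scanner file, and -0.15 for the other probe.

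**Figure D2:**
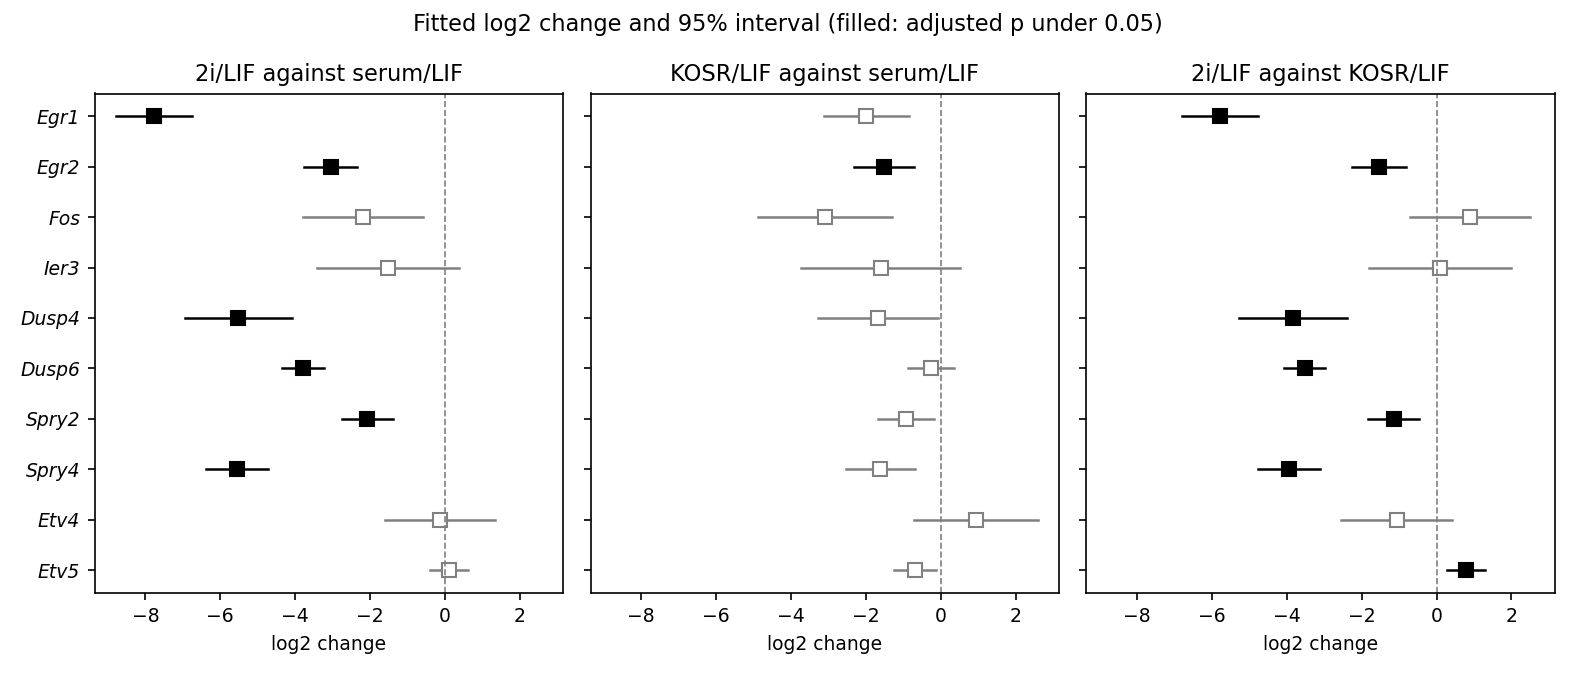
Fitted log2 change of each gene (horizontal axis) with its 95% interval, for 2i/LIF against serum/LIF, KOSR/LIF against serum/LIF and 2i/LIF against KOSR/LIF. Filled squares passed an adjusted p of 0.05 in limma: 6 genes in the first comparison, 1 in the second and 7 in the third.

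The arrays were scanned on 3 days, and the first day held 2 arrays of each medium. Within that day the fitted changes in 2i/LIF against serum/LIF were -8.30 for Egr1, -3.12 for Egr2, -6.47 for Dusp4, -3.55 for Dusp6, -1.85 for Spry2 and -5.10 for Spry4, and all 6 passed (limma adjusted p between 0.00192 and 0.0264). On the third day, with 2 arrays of 2i/LIF and 1 of serum/LIF that is assumed to vary like the 2i/LIF arrays, the changes were -7.30 for Egr1, -5.66 for Dusp4, -3.85 for Dusp6 and -2.31 for Spry2. The spread there rests on the pair of 2i/LIF arrays alone, so no call is read from that day. On the second day, 2i/LIF replicate 2 and KOSR/LIF replicate 3 were the only arrays, so no test was possible.

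KOSR/LIF was set against serum/LIF as media that both lack the MEK inhibitor. Of the 10 genes, Egr2 fell in KOSR/LIF and none rose. Egr2 entered the test through the serum/LIF arrays alone, where it was highest, and of the 9 other genes 0 fell and 0 rose. Across all genes tested, 4.58% were called in this comparison, 2.21% lower and 2.37% higher. At an unadjusted p under 0.05, 7 of the 10 genes were lower (9.44% of all genes) and 0 higher (9.25% of all genes). The median log2 change of the 10 was -1.56 against -0.03 over all genes. KOSR/LIF arrays lay wholly below serum/LIF arrays for 7 of the 10 genes (16.0% of all genes) and wholly above for 0 (12.4% of all genes).

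Egr2 was, in processed signal, at least 1.32-fold lower in KOSR/LIF than in serum/LIF (limma adjusted p = 0.0390), with all 3 KOSR/LIF arrays not well above background. The call ended when any one of 7 arrays was left out (2i/LIF replicates 3 and 4, KOSR/LIF replicates 1 and 2, and each serum/LIF array), with adjusted p-values between 0.0515 and 0.165. It passed without KOSR/LIF replicate 3 (-1.82, adjusted p = 0.0228), and within the first scan day (-1.92, adjusted p = 0.0413). The call also ended with normexp (0.12, adjusted p = 0.870), with dim signals raised (-0.41, adjusted p = 0.748), without the filter on dim probes (adjusted p = 0.0711) and with the line from titles as a block (adjusted p = 0.0520). Among the other 9 genes none passed.

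Of the other immediate early genes, the change in KOSR/LIF against serum/LIF was -1.98 ± 0.52 for Egr1 (limma adjusted p = 0.0552), -3.08 ± 0.82 for Fos (0.0568) and -1.60 ± 0.97 for Ier3 (0.414). Without KOSR/LIF replicate 3 the Ier3 change was -0.15 and that of Egr1 -1.52, neither of which passed. Egr1 passed without KOSR/LIF replicate 1 (-2.53, adjusted p = 0.0263), the KOSR/LIF array nearest to serum/LIF, and under 5 other settings (adjusted p between 0.0227 and 0.0495). For Fos all KOSR/LIF arrays lay below all serum/LIF arrays, and the change was -2.00 without serum/LIF replicate 3 (adjusted p = 0.127). With the line from source names as a block Fos passed (adjusted p = 0.0219). In the value table, whose column for KOSR/LIF replicate 3 had intensities of 3220 for Egr1 and 1710 for Fos, the changes were -0.53 for Egr1 and 0.18 for Fos. With that column left out they were -1.44 and -1.31, with adjusted p-values of 0.158 and 0.115.

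The feedback genes did not pass either. Changes in KOSR/LIF against serum/LIF were -1.68 ± 0.73 for Dusp4 (limma adjusted p = 0.245), -0.92 ± 0.35 for Spry2 (0.172) and -1.61 ± 0.43 for Spry4 (0.0562), and in each the arrays of the media did not overlap. Dusp4 passed with normexp (-1.47, adjusted p = 0.0418) and Spry4 with quantile normalization (-1.86, adjusted p = 0.0247). Dusp6 was the closest of the phosphatases between these media, with a change of -0.26 ± 0.28 and a 95% interval between -0.88 and 0.35. For the ETS genes the change was 0.94 ± 0.75 for Etv4 and -0.68 ± 0.26 for Etv5 (adjusted p = 0.539 and 0.173). Within the first scan day the changes of these 6 genes lay between -1.42 for Spry4 and 1.37 for Etv4, and none passed. Without KOSR/LIF replicate 3 none passed either, with changes between -1.78 for Spry4 and 1.36 for Etv4.

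The third comparison set 2i/LIF against KOSR/LIF, media free of serum that differ in the MEK and GSK3 inhibitors among other components. It shares the 2i/LIF arrays with the first comparison and the KOSR/LIF arrays with the second, so the comparisons are not independent. Of the 10 genes, 6 fell in 2i/LIF (Egr1, Egr2, Dusp4, Dusp6, Spry2 and Spry4) and Etv5 rose. Egr2, which entered the test through the serum/LIF arrays alone, had only dim signals on the arrays of these media, none well above background. Of the 9 other genes 5 fell, among them Spry4, dim on every 2i/LIF array, and 1 rose. Across all genes, 14.7% were called, 8.72% lower and 5.95% higher. The median log2 change of the 10 genes was -1.34, against 0.03 over all genes. Without overlap, 6 of the 10 were lower (10.6% of all genes) and 1 was higher (9.04% of all genes).

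Egr1 fell by 5.78 ± 0.47 in 2i/LIF against KOSR/LIF (limma adjusted p = 2.66e-05), and its change was -4.69 with dim signals raised and -2.45 with normexp. Dusp6 fell by 3.53 ± 0.25, an 11.5-fold difference (adjusted p = 1.45e-05). Dusp4 fell by 3.84 ± 0.66, a 14.3-fold difference (adjusted p = 0.00231), with a change of -2.18 with normexp. These 3 genes, one early transcription factor and both phosphatases, had every 2i/LIF array below every KOSR/LIF array. The gap was narrowest for Dusp4, between -1.35 on 2i/LIF replicate 2 and -0.32 on KOSR/LIF replicate 3. Spry4 was at least 4.27-fold lower in 2i/LIF (adjusted p = 7.2e-05), with 2 of 3 KOSR/LIF arrays well above background. That bound too holds for the processed signal: with normexp the fitted log2 change of Spry4 was -1.17, which is smaller than the bound (adjusted p = 0.0483). Egr2 passed as well (adjusted p = 0.00812), but with both media below background no fold is given and nothing is read from it. That call ended with normexp, quantile normalization and dim signals raised, with adjusted p-values between 0.0524 and 0.341. Without KOSR/LIF replicate 3, Egr1 (-6.25), Dusp4 (-4.19), Dusp6 (-3.50) and Spry4 (fitted change -3.77) passed.

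The calls on Spry2 and Etv5 were less firm. Spry2 fell by 1.14 ± 0.31 in 2i/LIF against KOSR/LIF (limma adjusted p = 0.0279). The call ended without 2i/LIF replicate 3, 4 or 5 or KOSR/LIF replicate 1 or 3, with adjusted p-values between 0.0509 and 0.110, and with normexp or the slide as a block (0.0752 and 0.0847). It was also lost with the replicate number as a block (0.056) and in the value table with KOSR/LIF replicate 3 left out (0.106). Etv5 rose by 0.79 ± 0.23, a 1.73-fold difference (adjusted p = 0.0384). Its call ended without 2i/LIF replicate 1, 3, 4 or 5, KOSR/LIF replicate 1 or 2, or serum/LIF replicate 1, with adjusted p-values between 0.0615 and 0.117, and with quantile normalization, without the filter on dim probes, and with the scan day or the line as a block (between 0.0527 and 0.0699). The call was also lost with the replicate number as a block (0.204) and without both 2i/LIF replicates 1 and 5 (0.144). It held without KOSR/LIF replicate 3 (0.0418). Within the first scan day, the changes were -0.98 for Spry2, which did not pass, and 0.94 for Etv5, which did (adjusted p = 0.145 and 0.0386). Within that day Egr1 (-6.91), Dusp4 (-5.21), Dusp6 (-3.21) and Spry4 (-3.68) passed, and Egr2 did not (adjusted p = 0.0764).

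Fos, Ier3 and Etv4 did not pass between 2i/LIF and KOSR/LIF. Their changes were 0.90 ± 0.73 (limma adjusted p = 0.480), 0.09 ± 0.87 (0.963) and -1.07 ± 0.67 (0.351). For Ier3 the sign turned without KOSR/LIF replicate 3, to -1.37 (adjusted p = 0.0967). In the value table the Fos change was -1.06, and 0.44 with the column of KOSR/LIF replicate 3 left out.

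**Figure D3:**
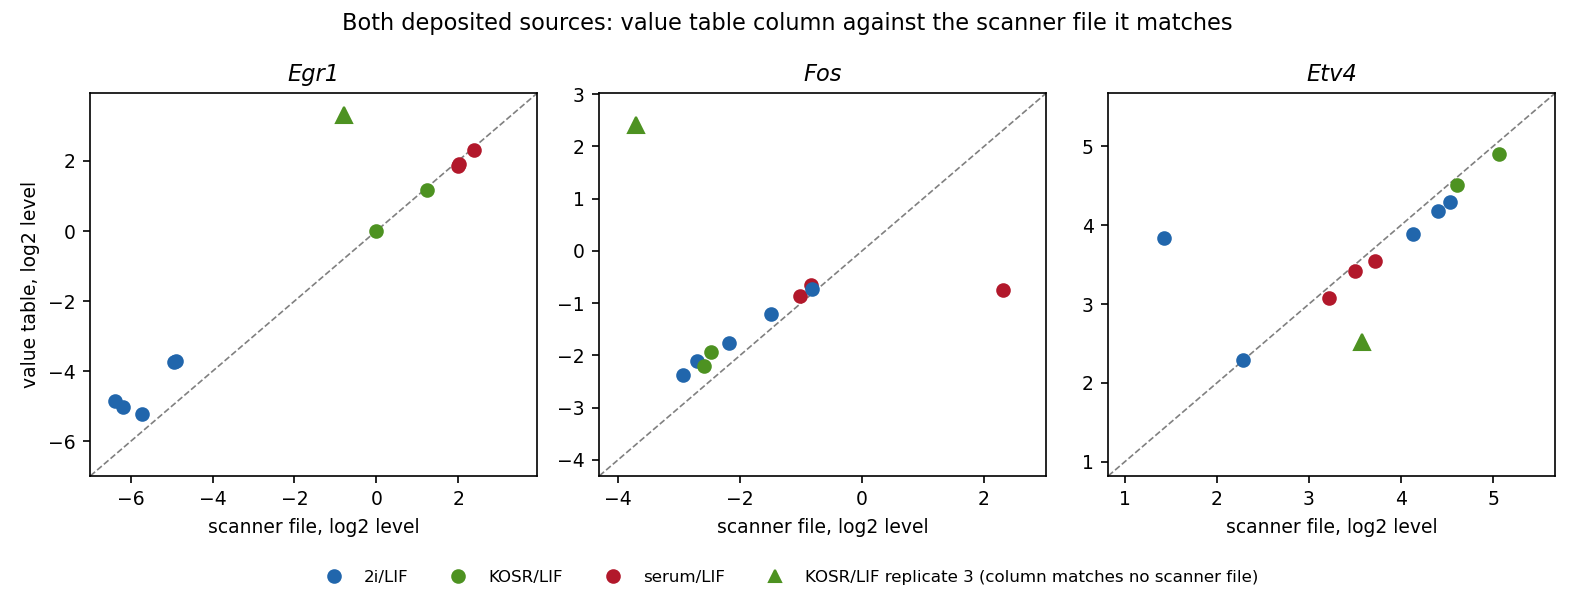
Log2 level in the deposited value table (vertical axis) against the log2 level in the scanner file that the column matches (horizontal axis) for Egr1, Fos and 1 Etv4 probe, 11 columns each, with the line of equality dashed. The triangle is KOSR/LIF replicate 3, whose column matched no scanner file and is set against its own. Among the circles, 1 Fos serum/LIF array (2.31 in the scanner file, -0.76 in the table) and 1 Etv4 2i/LIF array (1.42 and 3.84) lie furthest off the line. All Egr1 circles of 2i/LIF lie above the line, by 0.51 to 1.54. Fos circles of 2i/LIF and KOSR/LIF lie above it by up to 0.60.

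The 10 genes did not all follow one pattern. Across the 11 arrays, Pearson's r between their levels had a median of 0.33 over 45 pairs and ran between -0.49 and 0.97, with Egr1 and Spry4 the closest pair. The arrays fall into 3 media, so these values mostly restate the differences between media, and they carry no test. Once each medium's mean was removed, the median r was 0.05, with 24 of 45 pairs above 0, and that of Egr1 and Spry4 was -0.007. Averaged over the 10 genes as standard scores, the profile ran between -0.80 and -0.36 in 2i/LIF, between -0.13 and 0.37 in KOSR/LIF and between 0.80 and 1.02 in serum/LIF.

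The genes outside the list with the most similar profile over the 11 arrays, by Pearson's r with that average, were S100a6 (0.980), Tap2 (0.977), Psmb8 (0.976), Bmp8b (0.976), Cgn (0.971) and Ppl (0.970). S100a6 encodes a calcium-binding protein, Tap2 a peptide transporter of antigen presentation, Psmb8 a subunit of the immunoproteasome, Bmp8b a BMP-family ligand, Cgn the tight junction protein cingulin and Ppl the desmosome-associated protein periplakin. The likeness is a description over arrays that share their media, with no test.

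Other genes of the pathway were read from the same fit, which called 9.98% of all genes lower and 6.74% higher in 2i/LIF against serum/LIF. In 2i/LIF against serum/LIF, 11 of 23 other immediate early genes tested fell and 0 rose (1 higher at an unadjusted p under 0.05), with a median log2 change of -0.82. The AP-1 gene Fosl2 (-3.99 ± 0.47), Myc (-3.57 ± 0.55), the mRNA decay factor gene Zfp36 (-3.29 ± 0.52) and Phlda1 (-2.85 ± 0.43) had the largest fitted falls. In 2i/LIF, 2 of 5 arrays had Fosl2 well above background and 1 had Zfp36, and with dim signals raised their changes were -3.42 and -2.15, the second smaller than that of Junb (-2.30). The count of 11 was 7 without serum/LIF replicate 1. Of 24 genes listed, Egr3 did not pass the filter on dim probes.

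Among 15 other feedback regulators tested, 7 fell in 2i/LIF against serum/LIF and 0 rose (0 also unadjusted), with a median of -1.20. Shares over all genes were again 9.98% lower and 6.74% higher. Spry1, another Sprouty gene (-2.55 ± 0.34), the ERK phosphatase genes Dusp9 (-2.45 ± 0.73) and Dusp5 (-2.22 ± 0.36) and the Sprouty-related gene Spred3 (-1.69 ± 0.39) had the largest fitted falls among those that passed. In 2i/LIF, 1 of 5 arrays had each of Dusp5 and Spred3 well above background, and with dim signals raised their changes were -1.62 and -0.87, the second smaller than that of Spred1 (-1.45 ± 0.26), which every array had well above background. The count of 7 was 4 without serum/LIF replicate 1. The kinases and adaptors of the cascade itself, receptor adaptors through Ras, Raf, MEK and ERK to its nuclear substrates, gave 0 calls among 23 genes tested in limma (2 lower and 0 higher at an unadjusted p under 0.05), and their median was -0.05. The replicate block also called 0, and scan slide as a block and the value table called 1 and 2, all lower.

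In KOSR/LIF against serum/LIF, 2.21% of all genes tested were called lower and 2.37% higher. Of the 23 other immediate early genes, 4 fell and 0 rose (1 unadjusted), with a median of -0.73. These were Zfp36 (-2.50 ± 0.58), the AP-1 gene Junb (-1.60 ± 0.41), the zinc finger gene Klf6 (-1.42 ± 0.35) and the orphan nuclear receptor gene Nr4a1 (-1.27 ± 0.25). Zfp36 was well above background on 1 KOSR/LIF array, and with dim signals raised its change was -1.21. Among the 15 feedback regulators, Spry1 (-1.76 ± 0.38) and the MAP kinase phosphatase gene Dusp1 (-1.46 ± 0.26) fell and 0 rose (0 unadjusted). The counts of 4 and 2 were both 0 without serum/LIF replicate 1, and the count of 4 was 0 without serum/LIF replicate 3. Without KOSR/LIF replicate 1, 1 immediate early gene and 1 feedback regulator passed, and without KOSR/LIF replicate 2 it was 2 and 1. Without serum/LIF replicate 2 each count was 1, the feedback count was 1 without KOSR/LIF replicate 3 or serum/LIF replicate 3, and the immediate early count was 2 without 2i/LIF replicate 3 or 5. The cascade gave 0 calls in limma (2 lower and 1 higher unadjusted).

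In 2i/LIF against KOSR/LIF, 4 of the 23 other immediate early genes fell, namely Egr4 (-2.62 ± 0.55), Myc (-2.31 ± 0.55), Phlda1 (-2.15 ± 0.43) and Fosl2 (-1.99 ± 0.47), and 2 rose, the cyclin D1 gene Ccnd1 (1.41 ± 0.30) and Nr4a1 (1.00 ± 0.23). Of the 15 feedback regulators 3 fell, Dusp9 (-2.60 ± 0.73), Dusp5 (-1.96 ± 0.36) and Spred1 (-1.35 ± 0.26), an inhibitor of Ras signalling. Dusp10, a phosphatase known for acting on p38 and JNK (2.00 ± 0.53), and Dusp1 (0.87 ± 0.24) rose. The 5 feedback calls were 3 without 2i/LIF replicate 1 or KOSR/LIF replicate 2 and 2 without KOSR/LIF replicate 1. Of the cascade, the Raf kinase gene Braf fell by 1.19 ± 0.30 (limma adjusted p = 0.0199) and no other of 23 genes passed, and without KOSR/LIF replicate 1 the count was 0. Over all genes tested, 8.72% were called lower and 5.95% higher in this comparison.

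**Figure D4:**
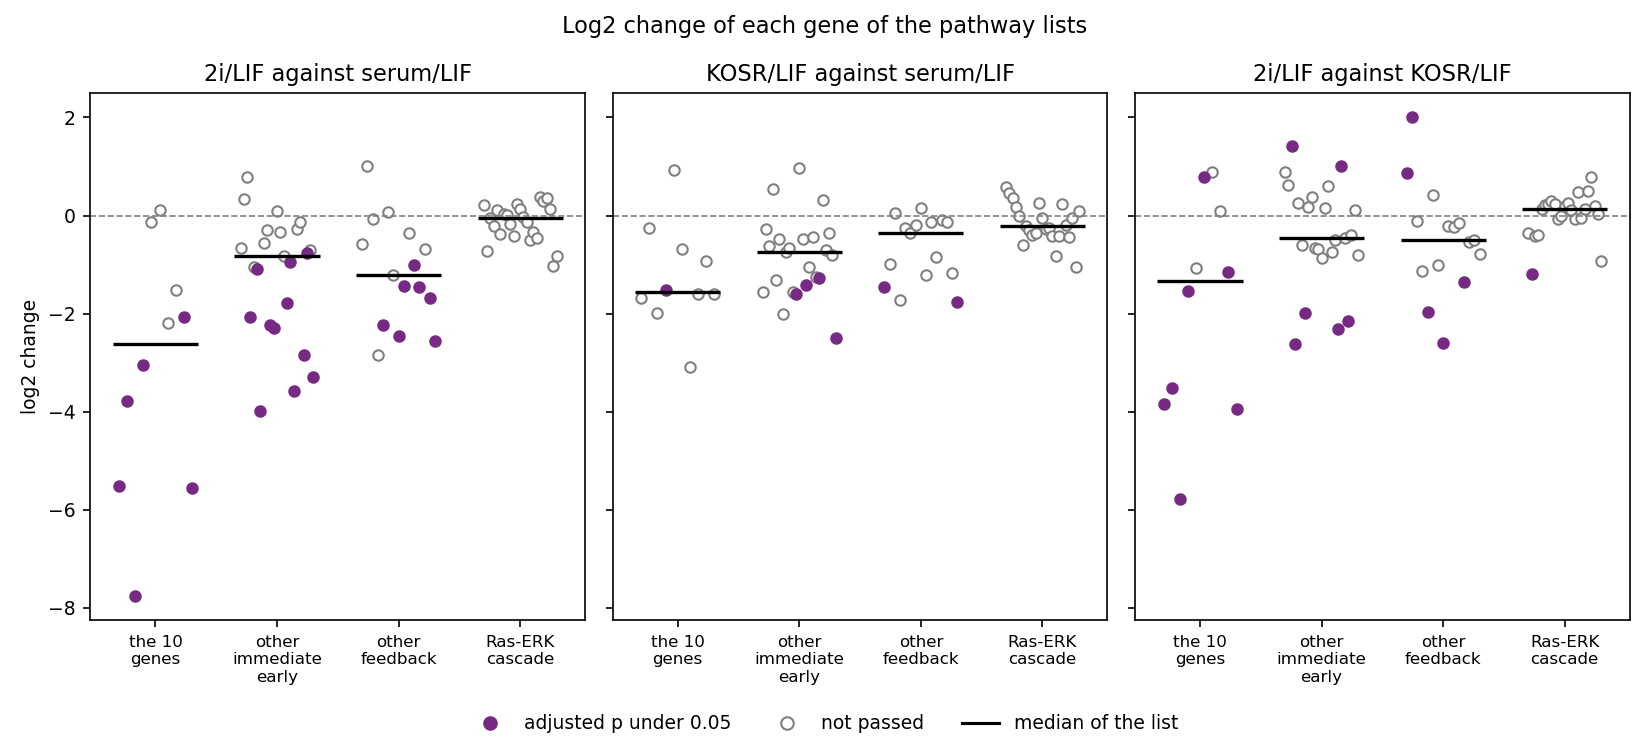
Log2 change of every tested gene (vertical axis) of the 10-gene list, other immediate early genes, other feedback regulators and the Ras-ERK cascade, in the 3 comparisons. Filled points passed an adjusted p of 0.05 in limma and bars are list medians; in 2i/LIF against serum/LIF the medians were -2.62, -0.82, -1.20 and -0.05.

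Markers of other cells differed between media too, and their part in the changes above was not tested. Of all genes tested, limma called 9.98% lower and 6.74% higher in 2i/LIF against serum/LIF. The shares were 2.21% and 2.37% in KOSR/LIF against serum/LIF, and 8.72% and 5.95% in 2i/LIF against KOSR/LIF. Of 7 fibroblast markers tested, 3 fell in 2i/LIF against serum/LIF (Col1a1, Col1a2 and Dcn), and 1 rose in KOSR/LIF against serum/LIF (Col1a2). The same 3 fell in 2i/LIF against KOSR/LIF, where the median of the 7 was -2.14. Their summed level, in multiples of the array's 75th percentile, was 1.87 to 2.52 in 2i/LIF, 7.11 to 12.4 in KOSR/LIF and 3.72 to 13.4 in serum/LIF, and no 2i/LIF array had Dcn well above background. Of 7 primitive endoderm markers, 6 fell in 2i/LIF against KOSR/LIF and 1 in 2i/LIF against serum/LIF, and 1 rose in KOSR/LIF against serum/LIF. Their summed level was 0.287 to 0.558 in 2i/LIF, 1.1 to 8.98 in KOSR/LIF and 0.573 to 1.35 in serum/LIF, and no 2i/LIF array had Sox7 well above background. Of the 8 ES cell markers, 1 fell in 2i/LIF against serum/LIF (Tdgf1), 1 fell in KOSR/LIF against serum/LIF (Sox2), where the median of the 8 was -0.90 and all 8 were below 0, and 4 rose in 2i/LIF against KOSR/LIF (Sox2, Nanog, Esrrb and Fgf4). They summed to 673 to 951 in 2i/LIF, 445 to 592 in KOSR/LIF and 672 to 905 in serum/LIF. Of 6 heat shock and stress genes, Gadd45a fell in 2i/LIF against both other media (-2.40 ± 0.29 against serum/LIF and -2.62 ± 0.29 against KOSR/LIF), and 0 of 6 passed between KOSR/LIF and serum/LIF (0 unadjusted).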

How the data were processed

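Gene expression in ES cells of 3 media was measured on 11 Agilent one-colour arrays. RNA was extracted with Qiagen RNeasy kits and labelled with Cy3 per the labels' protocols. Scanner values, as deposited, are linear intensities after background subtraction and no scaling between arrays. Per the file headers they come from version 11.0.1.1 of Agilent Feature Extraction, and probes were designed on mm9. A value table of linear intensities was deposited too. Its making is not given in the sources.

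Groups and replicate numbers came from sample titles. Control spots were dropped from the 62976 on each array, leaving 59305, and unflagged spots were averaged into 55648 probes. Of these, 29109 had a RefSeq accession and 27642 found a symbol in the RefSeq gene table for GRCm38.p6, giving 20964 genes. No coordinates were taken from it. The log2 intensity minus each array's 75th percentile was tested for probes flagged well above background on 3 or more of 11 arrays, with the brightest probe per gene (16279 genes). One model over all arrays (limma 3.58.1, lmFit and eBayes, R 4.3.3, two-sided) gave 3 comparisons, adjusted by Benjamini-Hochberg over all genes, threshold 0.05, with 8 residual degrees of freedom and 3.52 prior ones. The number of arrays limits the precision, and p-values rest on the spread among these samples, which may be technical. The fit was tested on simulated data.

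Members and lists were chosen with earlier results of these data known. The 10 members are named whatever their result, with up to 4 genes past the threshold per list, comparison and direction (largest changes) and the 6 genes of most similar profile. Lists covered other immediate early genes, other feedback regulators, the Ras-ERK cascade, ES cell, fibroblast and primitive endoderm markers and heat shock and stress genes. Titles and source names give different cell lines for replicates 1 to 4 of 2i/LIF, and the value table and the scanner files disagree on some replicate labels of a medium, with the right source unknown, so no values are given by line. Single replicates, also where 1 is left out, are numbered as in the scanner files. Samples sharing a replicate number were checked for shared deviations from their medium means. The correlations ran between -0.20 and 0.18, so the numbers were not taken as pairs. Alternatives changed the background correction, the scaling between arrays, the filter, the probe rule, blocks (slide, scan day, replicate number, cell line), the source of values and the arrays included. Normexp used the median spot signal, the one column of raw signal in the scanner files. Dim signals raised, and the value table without KOSR/LIF replicate 3, were added after the data were seen.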

Additional observations from a re-analysis of the deposited data

How the results depend on the processing

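Dusp6, Dusp4, Spry2, Spry4 and Egr1 were lower in 2i/LIF against serum/LIF under every alternative run for them (26 for Spry4, 27 for each other). They passed in each setting from which a call is read, which leaves out the third scan day. Their changes ran between -3.95 and -3.50, -6.47 and -3.64, -2.31 and -1.56, -6.63 and -1.80, and -8.30 and -4.13 in that order, each of the smallest for Dusp4, Spry4 and Egr1 being with normexp. Spry4 and Egr2 had too few bright arrays to be tested under a stricter filter (well above background on at least 6 arrays). Under that filter 4 of the 8 genes tested passed as lower. Counts of the 10 genes were 6 to 7 without any single array in 2i/LIF against serum/LIF, 0 to 1 in KOSR/LIF against serum/LIF and 5 to 7 in 2i/LIF against KOSR/LIF. The replicate block, over samples that share only a number, gave 6, 0 and 4 of the 10 genes in these comparisons, 7, 0 and 4 other immediate early genes, and, in 2i/LIF against KOSR/LIF, 2 feedback regulators and 0 cascade genes. In KOSR/LIF against serum/LIF, the count of 1 among the 10 genes became 2 with normexp, quantile normalization or without 2i/LIF replicates 1 and 5, 3 with the line from source names as a block, and 0 without the filter on dim probes or with the line from titles as a block. Other immediate early genes then numbered 2 (normexp), 1 (no filter, first scan day, line from source names) and 2 (value table, with or without KOSR/LIF replicate 3), against 4. In 2i/LIF against serum/LIF they numbered 6 with normexp, against 11. Cascade calls there were 1 with the slide as a block or without 2i/LIF replicates 1 and 5, and 2 within the first day and in the value table (both versions), against 0. In 2i/LIF against KOSR/LIF feedback regulators numbered 3 with normexp, 2 with the slide as a block and 2 within the first day, against 5. The cascade count there was 0 with normexp and 2 with the mean over probes, the slide, the scan day, the line from titles, the first day or the value table, against 1. Without single arrays the other lists ran between 7 and 13, 0 and 5, and 4 and 7 (other immediate early genes), 4 and 8, 0 and 2, and 2 and 5 (feedback regulators), and 0 and 0, 0 and 0, and 0 and 1 (cascade), in the order of comparisons above. The low values in these ranges also come from fewer samples.

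Signs turned only for changes that had not passed, apart from Egr2 in KOSR/LIF against serum/LIF (0.12 with normexp). Etv4 in 2i/LIF against serum/LIF turned to 0.032 with the scan day as a block, 0.82 within the third day, 0.12 with the replicate block, 0.35 in the value table (both versions) and 0.14 without 2i/LIF replicate 2, and ran between -0.42 and 0.35 without single arrays. Etv5 turned there to -0.003 without 2i/LIF replicates 1 and 5 and ran between -0.041 and 0.26 without single arrays, the lowest being without serum/LIF replicate 3. Fos turned to 0.18 in KOSR/LIF against serum/LIF and -1.06 in 2i/LIF against KOSR/LIF in the value table. Ier3 in 2i/LIF against KOSR/LIF turned to -0.71 (normexp), -0.74 (slide), -0.64 (first day), -0.007 (replicate block), -0.91 and -1.17 (value table, with and without KOSR/LIF replicate 3), and -0.60 (dim signals raised). Without single arrays it ran between -1.37 and 0.86, and was below 0 without 2i/LIF replicate 3 or 4 or KOSR/LIF replicate 3. The cause of these changes was not tested. Probes not well above background limit what can be read for Egr1, Egr2 and Spry4 in 2i/LIF.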
